A study of Mus musculus with 3 samples.

Results

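The 35 genes of endoplasmic reticulum (ER) folding and secretory stress were chosen by name and matched to the gene symbols of the deposited tables, which hold 32245 symbols. All 35 were present and all had counts. They were described in cells of the mouse fracture callus by day after fracture, in classes of cells high for *Aspn*, *Cnmd*, *Col10a1*, *Ifitm5*, or *Rgs5*, and against the share of each cell's RNA that came from genes whose symbol starts with Col.

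Secreted proteins and matrix proteins enter the ER through the Sec61 channel, are folded there by chaperones and disulfide isomerases, and leave in COPII-coated vesicles. Procollagen chains need helpers of their own, among them HSP47 (*Serpinh1*), the prolyl isomerases FKBP65 (*Fkbp10*), FKBP22 (*Fkbp14*), and cyclophilin B (*Ppib*), and the cargo receptor TANGO1 (*Mia3*). When unfolded proteins accumulate, the membrane sensors IRE1 (*Ern1*), ATF6, and PERK (*Eif2ak3*) start the unfolded protein response, which raises chaperones, components of protein degradation, and, through ATF4, genes of amino acid supply. *Creb3l1* (OASIS) and *Creb3l2* (BBF2H7) encode membrane-bound factors related to ATF6 that are known from osteoblasts and from chondrocytes, respectively. Osteoblasts and chondrocytes export large amounts of collagen, so these genes are well studied in both.

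The samples were 3 droplet libraries of untreated C57BL/6 mice with a femoral fracture, 1 each from day 7, day 10, and day 14. Cells were released from the callus with collagenase after removal of muscle and marrow, and live cells negative for CD31, CD45, and TER119 were sorted. The number of animals in each library and their age are not in the labels. Because each day had 1 library, no difference could be set against the variation between animals, and no p-values are given. The deposited values are counts of unique molecular identifiers (UMIs), each of which stands for 1 captured mRNA molecule read at its 3′ end. The splicing of *Xbp1*, phosphorylation, and protein cleavage, by which this response is often read, were not measured.

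After the study's limits on genes (500 to 5000), mitochondrial UMIs (10%), and hemoglobin UMIs (5%), the libraries of days 7, 10, and 14 kept 7017, 6593, and 9853 cells. The median UMIs per cell were 5056, 17370, and 15802. In the same order, 6.37%, 99.9%, and 98.2% of the cells lacked a UMI of *Ptprc*, which encodes CD45, so the day 7 library held mostly cells that go against its label of mesenchymal cells. The libraries shared 29 to 42 barcode sequences in pairs. A cell was called high for a marker from 20 UMIs of *Aspn*, 20 of *Cnmd*, 50 of *Col10a1*, 10 of *Ifitm5*, or 20 of *Rgs5* per 10000 UMIs, with at least 3 UMIs, and cells high for several of them (1, 227, and 189 by day) were left out. *Aspn*-high cells numbered 13, 1317, and 3056 at days 7, 10, and 14, *Cnmd*-high cells 47, 2298, and 1271, *Col10a1*-high cells 7, 525, and 1471, *Ifitm5*-high cells 1, 76, and 262, and *Rgs5*-high cells 0, 70, and 182. At day 10 and day 14 each class had the highest summed level of its own marker list among the 5 classes: fibroblastic progenitors (*Aspn*), chondrocytes (*Cnmd*), hypertrophic chondrocytes (*Col10a1*), mature osteoblasts (*Ifitm5*), and pericytes (*Rgs5*). Each list includes the marker that selects its class, which raises the sum by selection, and *Rgs5* gave most of the pericyte sum. The remaining markers of each list, taken singly, were also highest in that class at both days. In *Col10a1*-high cells of day 10 the mature osteoblast list summed to 30811 CPM (counts scaled to the same total of UMIs in every class). It summed to 74925 CPM in *Ifitm5*-high cells of that day. Nearly all of the 30811 CPM came from *Ibsp*, which was also the largest part of the list in *Ifitm5*-high cells. *Ifitm5*, *Bglap*, *Bglap2*, *Sp7*, and *Dmp1* gave little of it, and each was lower than in *Ifitm5*-high cells. The classes are ranges of a marker's level and not types, and 759 cells at day 10 and 660 at day 14 lay within 25% of the *Cnmd* threshold.

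Levels are in CPM, taken after adding up all cells of a class within a library. Their intervals, and those of ratios and shares, are exact 95% intervals that cover counting error only. Of the 5 classes, day 7 values are given for *Cnmd*-high cells alone, since no other class reached 20 cells there. The summed level of 5 neutrophil markers in these cells was 1867 CPM, and that of 5 erythroid markers was 360.5 CPM. At day 14 the neutrophil list summed to 203 CPM in *Aspn*-high and 252 CPM in *Col10a1*-high cells and to 25.6 to 28.5 CPM in the other classes.

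The start sites of several of these genes carry the letters by which the unfolded protein response is known to act, and the stretches that hold them are shown to mark which genes they are. RefSeq promoters of GRCm38.p6 were matched to 30 of the 35 genes, and the 250 bases before the start site were searched on both strands. The ER stress response element (ERSE, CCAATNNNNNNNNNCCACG) was found in 7 of the 30 genes and in 0.113% of all 32851 promoters, and the shorter ERSE-II (ATTGGNCCACG) in *Herpud1* and in 0.0304% of all promoters. The sequences run 5′ to 3′ on the gene's strand, with the element in capitals and, where it lies on the opposite strand, its reverse complement in capitals.
*Hspa5* (ERSE, chr2:34772000-34772068, + strand): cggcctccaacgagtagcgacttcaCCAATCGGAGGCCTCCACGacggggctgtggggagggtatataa
*Hsp90b1* (ERSE, chr10:86705613-86705681, − strand): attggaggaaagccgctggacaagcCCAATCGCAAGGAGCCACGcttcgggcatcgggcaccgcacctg
*Calr* (ERSE, opposite strand, chr8:84847050-84847118, − strand): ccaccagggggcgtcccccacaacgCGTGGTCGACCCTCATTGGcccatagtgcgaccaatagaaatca
*Canx* (ERSE, chr11:50325775-50325843, − strand): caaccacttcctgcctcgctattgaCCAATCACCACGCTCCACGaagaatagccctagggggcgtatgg
*Pdia6* (ERSE, chr12:17266466-17266534, + strand): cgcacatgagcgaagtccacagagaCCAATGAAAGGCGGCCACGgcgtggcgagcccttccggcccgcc
*Dnajc3* (ERSE, chr14:118937802-118937870, + strand): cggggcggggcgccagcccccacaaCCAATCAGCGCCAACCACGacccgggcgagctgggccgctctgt
*Creld2* (ERSE, opposite strand, chr15:88819495-88819563, + strand): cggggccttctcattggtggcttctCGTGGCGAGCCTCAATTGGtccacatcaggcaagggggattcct
*Herpud1* (ERSE-II, chr8:94386352-94386412, + strand): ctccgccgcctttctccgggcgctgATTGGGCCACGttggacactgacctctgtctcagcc
*Hsp90b1* held an additional ERSE nearer to its start site. No gene held both ERSE and ERSE-II.

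The ATF4 element (CARE, TGATGNAA) was found upstream of *Asns*, *Chac1*, and *Herpud1*, and in 3.45% of all promoters. The last letters of the XBP1 element (UPRE, TGACGTGG) are the reverse complement of the CCACG of both ERSE forms. The UPRE was found for *Sec24d*, which held neither ERSE form, and in 0.563% of all promoters. The *Sec24d* match lies before a RefSeq start site that is inside the gene, past its annotated start at 123264801. The CARE matches of *Asns* and *Chac1* are shown because these genes differed most between *Ifitm5*-high and *Aspn*-high cells together with *Creb3l1*. That choice followed the result, and the CARE match of *Herpud1* is not shown. The match of *Sec24d*, which was not called in that pair, is shown as the only UPRE found among the members.
*Asns* (CARE, chr6:7693210-7693257, − strand): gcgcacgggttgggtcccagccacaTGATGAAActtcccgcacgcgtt
*Chac1* (CARE, opposite strand, chr2:119351024-119351081, + strand): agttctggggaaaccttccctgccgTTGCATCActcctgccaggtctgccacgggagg
*Sec24d* (UPRE, chr3:123267445-123267495, + strand): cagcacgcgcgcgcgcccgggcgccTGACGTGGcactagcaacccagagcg
A match is a description of the letters and not a measured binding site.

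Together the 35 genes gave 1.44% of the UMIs of *Aspn*-high cells at day 10 and 1.26% at day 14, 1.33% and 1.34% in *Cnmd*-high cells, 1.22% and 1.15% in *Ifitm5*-high cells, and 1.15% and 0.941% in *Rgs5*-high cells. The *Col10a1*-high cells had the lowest share at both days, 0.762% (95% CI, 0.756% to 0.768%) and 0.678% (95% CI, 0.674% to 0.681%). In *Cnmd*-high cells of day 7 the share was 1.45% (95% CI, 1.43% to 1.48%), and in the *Ptprc*-positive cells of that library it was 0.204%. These shares did not follow the share of Col UMIs across the classes. Col genes gave 8.07% and 6.42% of the UMIs of *Col10a1*-high cells at day 10 and day 14. They gave 7.18% and 6.64% in *Aspn*-high, 10.4% and 8.87% in *Cnmd*-high, 11.3% and 9.35% in *Ifitm5*-high, and 4.26% and 3.40% in *Rgs5*-high cells. *Col10a1*-high and *Aspn*-high cells thus lay close in Col UMIs and apart in the 35 genes. The Col share of *Col10a1*-high cells includes *Col10a1*, the marker that selects them, which gave a large part of it. Without *Col10a1*, their Col share lay below that of *Aspn*-high cells at both days, so the closeness rests on the selecting gene. *Ifitm5*-high cells, with the highest Col share at both days, had a lower share of the 35 genes than *Aspn*-high cells.

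Among the 35 genes, *Ifitm5*-high cells had the highest level of the 5 classes at both days for 10 genes, *Cnmd*-high cells for 6, *Aspn*-high cells for 4, *Rgs5*-high cells for 2, and *Col10a1*-high cells for 1. The highest class changed between the days for 12 genes. *Col10a1*-high cells were lowest at both days for 19 genes. The same counts were not made over all genes, so these have no background. Some first places also lay within counting error of the second, such as those of *Ifitm5*-high cells for *Fkbp14* and *Ern1* at both days.

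**Figure D1:**
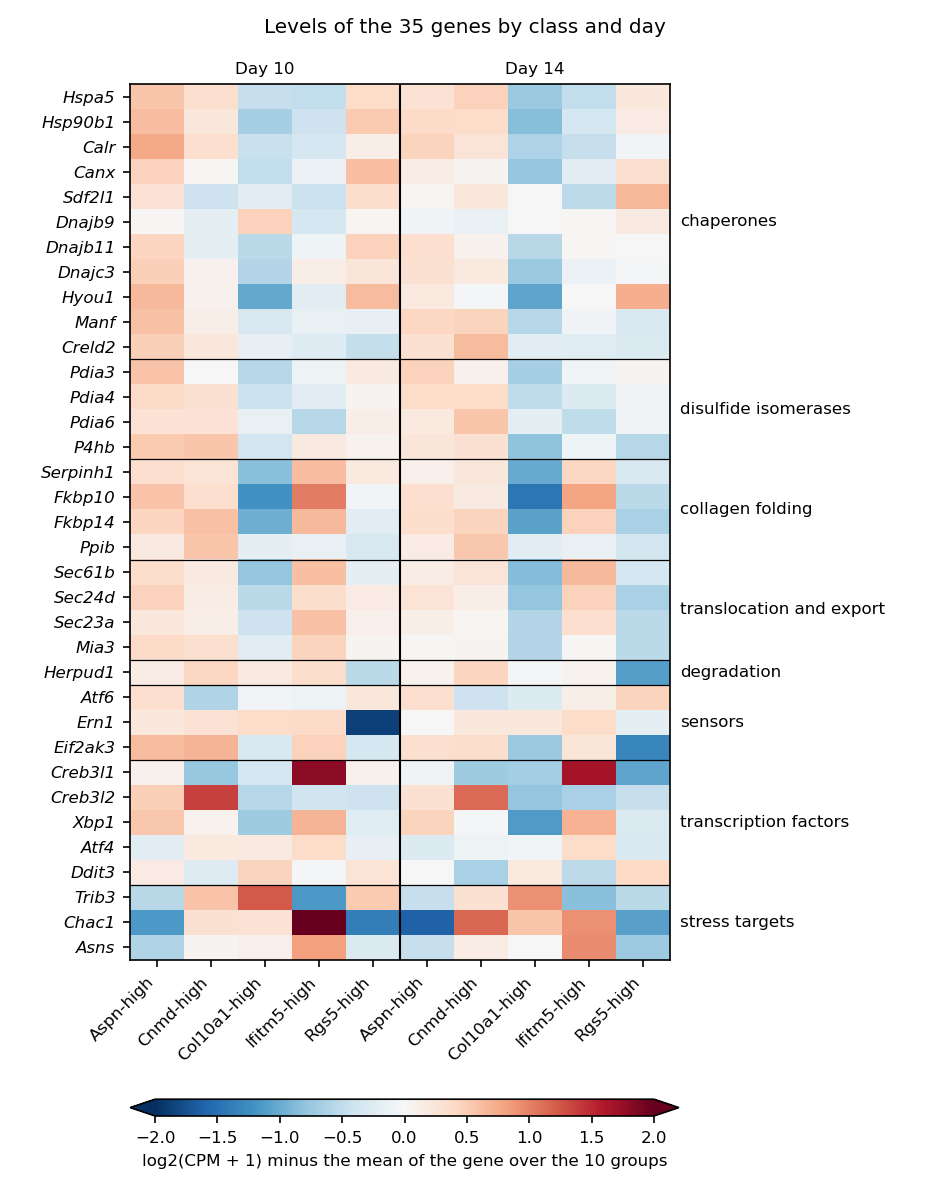
Heat map of the 35 genes (rows, grouped by role) in the 5 classes at day 10 and day 14 (columns). Color is log2(CPM + 1) minus the mean of the gene over the 10 groups, and most rows are at their lowest in the *Col10a1*-high columns, with *Creb3l1* standing out in *Ifitm5*-high and *Creb3l2* in *Cnmd*-high cells.

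For each pair of classes a gene was called when its levels differed by at least 1.5-fold, with an interval that excluded 1, in the same direction at day 10 and day 14, among genes with at least 20 UMIs in the pair in each library. Of the 35 genes, 16 were lower in *Col10a1*-high than in *Cnmd*-high cells, where the background over all genes tested was 13.6%, and 2 were higher, against 16.8%. From *Aspn*-high to *Cnmd*-high cells, 4 of the 35 were higher (background, 7.55%) and 2 were lower (27.0%). From *Aspn*-high to *Ifitm5*-high cells, 3 of 34 were higher (4.64%) and 6 were lower (19.5%). From *Aspn*-high to *Rgs5*-high cells, 0 of 34 were higher (10.3%) and 8 were lower (9.23%). The lower counts in *Ifitm5*-high and *Cnmd*-high cells thus lay at or under the share of all genes.

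The level of all genes shifted in these pairs as well. The median log2 ratio over all genes tested was −0.38 at day 10 and −0.41 at day 14 for *Ifitm5*-high over *Aspn*-high cells, and −0.33 and −0.37 for *Cnmd*-high over *Aspn*-high cells. It was 0.11 and 0.09 for *Col10a1*-high over *Cnmd*-high cells. The mature osteoblast list alone took 74925 CPM of the *Ifitm5*-high cells of day 10, against 2827 CPM in *Aspn*-high cells. The part of this list in the shift was not tested. With ratios centered on the median of all genes, 8 of 34 genes were higher in *Ifitm5*-high cells (background, 8.45%) and 0 were lower (10.6%). Centered, 6 of 35 were higher in *Cnmd*-high than in *Aspn*-high cells (13.0%) and 0 were lower (15.7%). The genes called lower in *Ifitm5*-high cells thus kept no 1.5-fold call relative to the typical gene. All 6 of them (*Hspa5*, *Hsp90b1*, *Calr*, *Pdia4*, *Pdia6*, and *Creb3l2*) still lay below the median of all genes at both days. For *Pdia4* at day 10 the interval included that median. *Creb3l1*, *Chac1*, and *Asns* were higher in *Ifitm5*-high cells on both scales.

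The 11 chaperones gave 0.403% and 0.437% of the UMIs of *Cnmd*-high cells at day 10 and day 14 and 0.250% and 0.215% of those of *Col10a1*-high cells. *Hspa5*, which encodes BiP, the main HSP70 of the ER, had 1164 CPM in *Aspn*-high, 987 in *Cnmd*-high, 575 in *Col10a1*-high, 559.9 in *Ifitm5*-high, and 1024 in *Rgs5*-high cells at day 10. At day 14 it had 965, 1086, 474, 560.2, and 921 CPM in the same order. The *Col10a1*-high and *Ifitm5*-high levels were the lowest pair at both days and did not overlap those of the other 3 classes. *Hspa5* was lower in *Col10a1*-high than in *Cnmd*-high cells by a log2 ratio of −0.78 (95% CI, −0.82 to −0.74) at day 10 and −1.20 (95% CI, −1.23 to −1.16) at day 14.

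*Hsp90b1* (GRP94) had 1347, 1021, 553, 658, and 1259 CPM at day 10 in *Aspn*-, *Cnmd*-, *Col10a1*-, *Ifitm5*-, and *Rgs5*-high cells, and 1141, 1129.9, 486, 687, and 980.4 CPM at day 14. *Calr*, whose product calreticulin holds glycoproteins until they fold, had 1247, 933, 540.4, 576, and 811 CPM at day 10 and 1009, 879.7, 478, 537, and 708 CPM at day 14. Both repeated the split, with *Col10a1*-high cells lowest and *Ifitm5*-high cells next. The membrane-bound partner of calreticulin, *Canx*, was highest in *Rgs5*-high cells at both days (345 and 283 CPM), next to *Aspn*-high cells (312 and 253 CPM).

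Against *Aspn*-high cells, *Ifitm5*-high cells were lower for *Hspa5* (log2 ratio −1.06 at day 10 and −0.78 at day 14), *Hsp90b1* (−1.03 and −0.73), *Calr* (−1.11 and −0.91), and the disulfide isomerases *Pdia6* (−0.85 and −0.70) and *Pdia4* (−0.59 and −0.63). *Creb3l2* (−0.88 and −0.98) was also called lower, where the background was 19.5% of all genes. Of these 6 genes, the first 4 named each hold an ERSE upstream, as shown above. The part of the element was not tested. The other genes with an ERSE did not reach the call: *Canx* at −0.58 and −0.36, *Dnajc3* at −0.34 and −0.42, and *Creld2* at −0.75 and −0.56. The median log2 ratio of the 11 chaperones was −0.74 at day 10 and −0.48 at day 14, and that of all genes was −0.38 and −0.41.

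Smaller chaperone genes did not follow a single order. *Dnajb9*, an HSP40 that acts on IRE1 and on BiP, was highest in *Col10a1*-high cells at day 10 (73.7 CPM) and in *Rgs5*-high cells at day 14 (60.1 CPM), with 41.2 to 54.8 CPM in the other groups of both days. *Hyou1*, an exchange factor for BiP, had 7.68 and 7.52 CPM in *Col10a1*-high cells and 14.2 to 28.2 CPM in the other classes at these days. *Manf* and *Creld2*, secreted products of ER stress, were lower in *Rgs5*-high than in *Aspn*-high cells, by log2 ratios of −0.75 and −0.71 for *Manf* and −0.96 and −0.61 for *Creld2*.

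None of the 4 collagen-folding genes was called between *Ifitm5*-high and *Aspn*-high cells, where *Serpinh1* (log2 ratios, 0.28 and 0.32) and *Fkbp10* (0.45 and 0.46) were higher beyond counting error, the intervals of *Fkbp14* included 0, and *Ppib* was at −0.33 and −0.32. *Serpinh1*, the collagen-specific chaperone, had 2795, 2682, 1239.8, 3404, and 2543 CPM at day 10 in *Aspn*-, *Cnmd*-, *Col10a1*-, *Ifitm5*-, and *Rgs5*-high cells. At day 14 it had 2369, 2590.1, 1095, 2967, and 1769 CPM. *Ifitm5*-high cells were highest at both days, above the next class by a log2 ratio of 0.28 and 0.20, with lower bounds of 0.24 and 0.17. *Col10a1*-high cells were lowest, at log2 ratios of −1.11 and −1.24 to *Cnmd*-high cells.

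*Fkbp10*, which acts on procollagen and on its crosslinking enzyme, spread more widely. It had 350.4, 299, 101, 479, and 227 CPM at day 10 and 298, 268, 86.2, 409, and 161 CPM at day 14 in the same class order. The order of the classes was the same at both days and neighbors in it did not overlap. Its relative *Fkbp14* had 40.8 and 38.2 CPM in *Col10a1*-high cells and was highest in *Ifitm5*-high cells (127 and 112 CPM), where it did not differ beyond counting error from *Cnmd*-high cells (122 and 111 CPM).

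*Ppib* departed from this order and was highest in *Cnmd*-high cells, at 2142 and 2116 CPM, against 1650 and 1627 in *Aspn*-high, 1267 and 1239 in *Col10a1*-high, 1309 and 1308 in *Ifitm5*-high, and 1160 and 1130.3 in *Rgs5*-high cells. *P4hb*, which is both a disulfide isomerase and the β subunit of prolyl 4-hydroxylase, was also highest in *Cnmd*-high cells (868 and 730.1 CPM) and lowest in *Col10a1*-high cells (452 and 337 CPM). All 4 collagen-folding genes were lower in *Col10a1*-high than in *Cnmd*-high cells, with medians of −1.34 and −1.39, the lowest of any role in that pair.

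**Figure D2:**
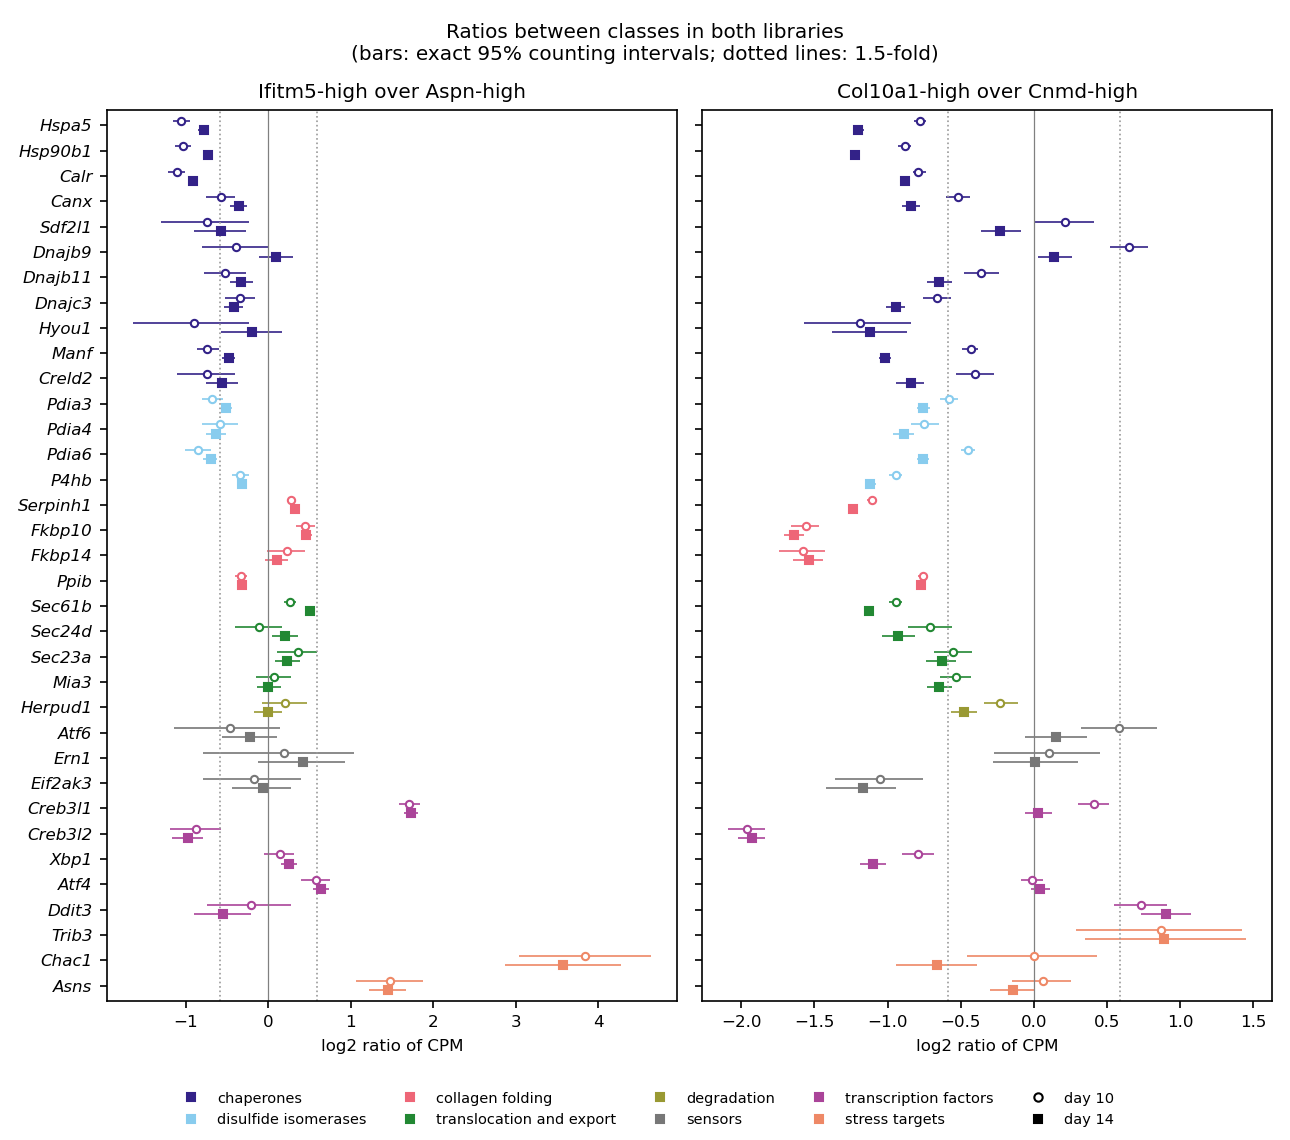
Log2 ratios of CPM for *Ifitm5*-high over *Aspn*-high cells (left) and *Col10a1*-high over *Cnmd*-high cells (right), with day 10 as open circles, day 14 as filled squares, and bars for exact 95% counting intervals. *Creb3l1*, *Chac1*, and *Asns* lie to the right of the dotted 1.5-fold line on the left panel, and 16 genes lie beyond the lower line at both days on the right panel. *Trib3* is left out on the left panel, since *Ifitm5*-high cells had at most 1 UMI of it.

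Of the genes of translocation and export, *Sec61b*, a subunit of the Sec61 channel, had 1190.4 and 1225 CPM in *Ifitm5*-high cells, above *Aspn*-high cells (993 and 862), *Cnmd*-high cells (879.8 and 936), *Rgs5*-high cells (679 and 609.5), and *Col10a1*-high cells (458 and 429). *Ifitm5*-high cells were also highest at both days for the COPII coat gene *Sec23a* (118 and 99.8 CPM). *Sec24d*, its partner, had 84.0 and 91.4 CPM there, beside 90.6 and 79.4 CPM in *Aspn*-high cells. *Mia3*, which loads procollagen into vesicles, had 141 and 105 CPM in *Ifitm5*-high, 134 and 105 in *Aspn*-high, and 129 and 107 in *Cnmd*-high cells, so these 3 classes lay close together. For all 4 genes *Col10a1*-high cells were lowest at day 10 and day 14 alike.

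The 3 sensors were low everywhere. *Ern1* had 5.75 to 8.85 CPM over the 5 classes at day 14, and *Atf6* 11.9 to 25.6 CPM over both days. *Eif2ak3* had 22.7 and 18.1 CPM in *Aspn*-high and 23.6 and 18.5 CPM in *Cnmd*-high cells, beside 11.4 and 8.20 CPM in *Col10a1*-high cells. It was lowest in *Rgs5*-high cells at both days and was called lower there than in *Aspn*-high cells. *Atf6* was lower in *Cnmd*-high than in *Aspn*-high cells at both days, with a log2 ratio of −0.80 (95% CI, −0.98 to −0.63) at day 14 and an interval of −1.18 to −0.82 at day 10, and was not called with ratios centered on all genes.

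The 2 OASIS family genes had different leading classes. *Creb3l1* had 438 and 404 CPM in *Ifitm5*-high cells at day 10 and day 14, against 134 and 121 in *Aspn*-high, 74.5 and 77.1 in *Cnmd*-high, 98.8 and 78.6 in *Col10a1*-high, and 134 and 60.6 in *Rgs5*-high cells. The *Ifitm5*-high level stood above all others, by a log2 ratio of 1.71 (95% CI, 1.58 to 1.84) and 1.73 (95% CI, 1.65 to 1.81) over *Aspn*-high cells. At an equal depth of 2000 UMIs per cell, 53.3% (95% CI, 41.4% to 64.9%) of 75 *Ifitm5*-high cells had a *Creb3l1* UMI at day 10 and 48.1% (95% CI, 41.9% to 54.3%) of 260 at day 14. In *Aspn*-high cells these shares were 21.0% and 21.1%, in *Cnmd*-high cells 12.9% and 13.3%, and in the *Ptprc*-positive cells of day 7, 1.41%. Before thinning, the shares in *Ifitm5*-high cells were 90.8% and 90.1% and those in *Aspn*-high cells were 73.1% and 71.9%, with median depths of 18277 and 15751 UMIs and of 15101 and 14362 UMIs, respectively.

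*Creb3l2* had 245 and 209 CPM in *Cnmd*-high cells, against 131 and 117 in *Aspn*-high, 62.9 and 54.8 in *Col10a1*-high, 71.2 and 59.5 in *Ifitm5*-high, and 70.2 and 67.9 in *Rgs5*-high cells. In *Cnmd*-high cells of day 7 it had 371 CPM, beside 75.6 CPM of *Creb3l1*. The log2 ratio of *Cnmd*-high over *Aspn*-high cells was 0.91 (95% CI, 0.84 to 0.97) at day 10 and 0.84 (95% CI, 0.78 to 0.89) at day 14. Between *Cnmd*-high and *Col10a1*-high cells *Creb3l2* showed the largest difference among the 35 genes, a log2 ratio of −1.96 (95% CI, −2.09 to −1.84) and −1.93 (95% CI, −2.02 to −1.84).

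*Xbp1*, the factor spliced by IRE1, was highest in *Ifitm5*-high (208 and 211 CPM) and *Aspn*-high cells (189.7 and 177 CPM) and lowest in *Col10a1*-high cells (78.5 and 58.8 CPM). It was lower in *Col10a1*-high than in *Cnmd*-high cells (log2 ratios, −0.79 and −1.10) and in *Rgs5*-high than in *Aspn*-high cells (−0.81 and −0.75). *Herpud1*, which serves ER-associated degradation, was lower in *Rgs5*-high than in *Aspn*-high cells, with 48.2 and 32.4 CPM against 78.9 and 74.7 CPM.

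*Atf4*, the factor translated when PERK or another kinase phosphorylates eIF2α, had 133 to 212 CPM over the 10 groups and was highest in *Ifitm5*-high cells (212 CPM at both days). Its log2 ratio over *Aspn*-high cells was 0.58 (95% CI, 0.39 to 0.75) and 0.64 (95% CI, 0.54 to 0.74), which missed the 1.5-fold call at day 10 and passed it at both days once centered on all genes. *Asns*, asparagine synthetase, had 45.7 and 50.1 CPM in *Ifitm5*-high cells, 26.5 and 28.3 in *Cnmd*-high, 27.5 and 25.6 in *Col10a1*-high, 16.4 and 18.3 in *Aspn*-high, and 20.8 and 15.1 in *Rgs5*-high cells. The *Ifitm5*-high cells did not overlap any other class, and the log2 ratio over *Aspn*-high cells was 1.48 (95% CI, 1.06 to 1.88) and 1.45 (95% CI, 1.22 to 1.67).

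*Chac1*, which degrades glutathione, was sparse. It had 21.0 and 9.34 CPM in *Ifitm5*-high, 5.71 and 11.1 in *Cnmd*-high, 5.70 and 7.03 in *Col10a1*-high, 1.46 and 0.785 in *Aspn*-high, and 1.10 and 1.57 in *Rgs5*-high cells. The 21.0 CPM rested on 28 UMIs in 14 of 76 cells, and 17.6 CPM remained without the cell that held most of them. The log2 ratio of *Ifitm5*-high over *Aspn*-high cells was 3.84 (95% CI, 3.04 to 4.64) and 3.57 (95% CI, 2.87 to 4.28). In *Cnmd*-high cells of day 14, 298 UMIs lay in 168 of 1271 cells.

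*Trib3* and *Ddit3*, which encodes CHOP, had another order, with *Col10a1*-high cells above *Cnmd*-high cells. *Trib3* had 4.17 and 3.19 CPM in *Col10a1*-high, 2.28 and 1.72 in *Cnmd*-high, 0.504 and 0.600 in *Aspn*-high, and 2.19 and 0.522 in *Rgs5*-high cells. *Ifitm5*-high cells had 0 UMIs at day 10, which allows up to 2.25 CPM, and 1 UMI at day 14. The 38 UMIs of *Col10a1*-high cells at day 10 lay in 19 of 525 cells, of which 1 held 9, and 3.19 CPM remained without it, under 1.5 times the *Cnmd*-high level of day 10. *Ddit3* had 37.0 and 31.2 CPM in *Col10a1*-high and 22.3 and 16.8 CPM in *Cnmd*-high cells, a log2 ratio of 0.73 (95% CI, 0.55 to 0.91) and 0.90 (95% CI, 0.73 to 1.07). *Aspn*-high cells (30.4 and 26.9 CPM) and *Rgs5*-high cells (32.9 and 36.0 CPM) were near the *Col10a1*-high level, and *Ptprc*-positive cells of day 7 were at 34.0 CPM. All *Ddit3* UMIs came from 1 of the 2 gene identifiers with that symbol.

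**Figure D3:**
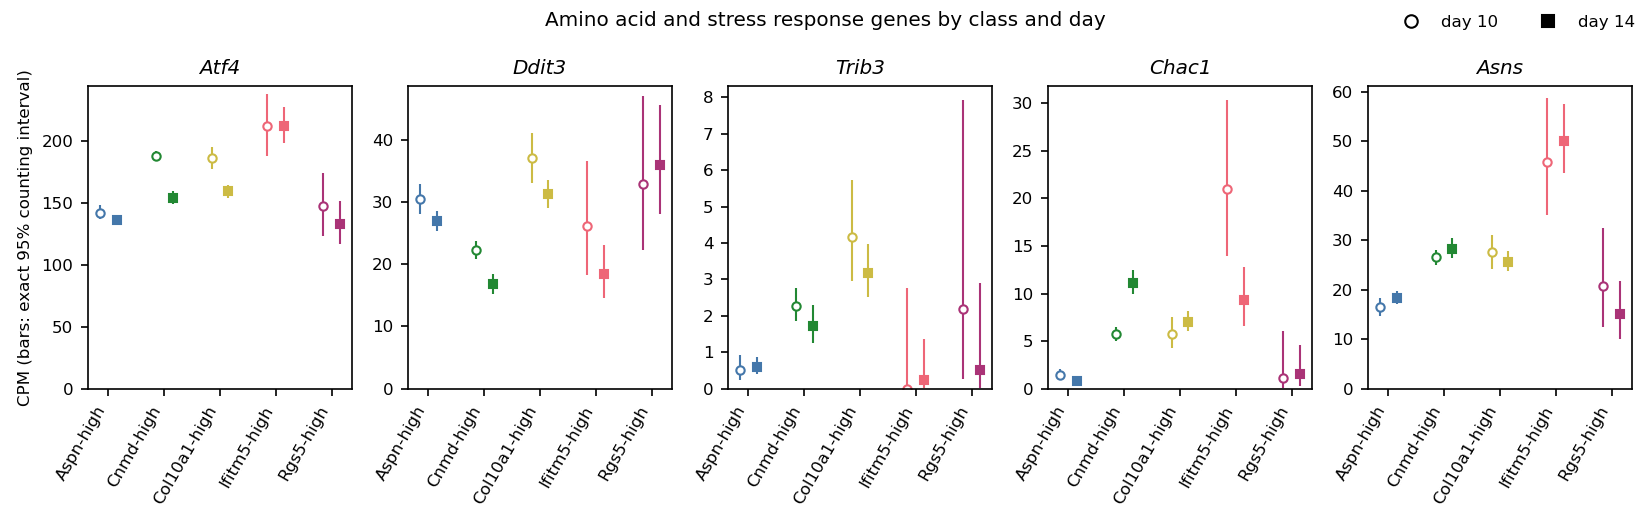
Levels in CPM of *Atf4*, *Ddit3*, *Trib3*, *Chac1*, and *Asns* in the 5 classes (x axis) at day 10 (open circles) and day 14 (filled squares), with exact 95% counting intervals. *Asns* and *Atf4* are highest in *Ifitm5*-high cells at both days, *Trib3* is highest in *Col10a1*-high cells, and *Chac1* in *Ifitm5*-high cells falls from 21.0 to 9.34 CPM.

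Few genes differed between the days within a class. From day 10 to day 14, *Aspn*-high cells had 0 of 35 higher (background, 3.85%) and 1 lower (6.13%), *Chac1*, with a log2 ratio of −0.90 (95% CI, −1.66 to −0.13). *Cnmd*-high cells had 2 higher (3.96%), the HSP40 partner *Sdf2l1* at 0.66 and *Chac1* at 0.96, and 0 lower (5.08%). *Col10a1*-high cells had 0 higher (3.61%) and 0 lower (6.23%), and their log2 ratios ran from −0.48 to 0.30. *Ifitm5*-high cells had 0 of 34 higher (2.76%) and 1 lower (4.57%), *Chac1* at −1.17 (95% CI, −1.91 to −0.41). The call in *Aspn*-high cells rested on 29 and 34 UMIs and was lost in several alternatives, among them thinning and doubled thresholds. The calls in *Aspn*-high and *Ifitm5*-high cells were both lost with a minimum of 100 UMIs.

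*Rgs5*-high cells stood apart, with 0 of 32 higher (4.32%) and 5 lower (4.66%). The 5 were *Creb3l1* (log2 ratio, −1.14, 95% CI, −1.52 to −0.76), *P4hb* (−0.64), and the export genes *Sec24d* (−0.81), *Sec23a* (−0.65), and *Mia3* (−0.61). Their median depth was 12522 UMIs at day 10, in 70 cells, and 9262 UMIs at day 14, in 182 cells. The Col share of their UMIs was 4.26% and 3.40%. From day 10 to day 14 their summed levels went from 519 to 1423 CPM for the chondrocyte list, from 371 to 2598 CPM for the hypertrophic chondrocyte list, from 145 to 1574 CPM for the mature osteoblast list, and from 2918 to 1949.8 CPM for the fibroblastic progenitor list. All markers of these lists had UMIs on both days except *Bglap2*, which was at 0 at day 10. The part of depth, Col share, and these markers in the difference was not tested, and the day and the library cannot be told apart in any of these comparisons.

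At day 7, *Cnmd*-high cells had 1074 CPM of *Hspa5*, 1091 of *Hsp90b1*, 919.8 of *Calr*, 2783 of *Serpinh1*, and 1944 of *Ppib*, within or near the range of *Cnmd*-high cells of later days. *Fkbp10* (463 CPM), *P4hb* (1187 CPM), and *Mia3* (215 CPM) were above the later values, beside 13.1% of Col UMIs, which was also the highest of the 3 days. The 47 cells were too few for a comparison between days.

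Within each class the cells were then ordered by their share of Col UMIs, and the highest tertile was compared with the lowest, with levels as CPM of the UMIs that are not from Col genes (non-Col CPM). For *Col10a1*-high cells this share includes the selecting marker, whose part in the order was not tested. In *Col10a1*-high cells, 5 of 35 genes were higher in the high tertile (background, 6.56%) and 0 were lower (2.89%). The median mitochondrial percentage of these cells went with Col share from 1.69% to 2.02% at day 10 and from 0.990% to 1.87% at day 14, and its part was not tested. The 5 genes were *P4hb*, *Fkbp10*, *Fkbp14*, *Ppib*, and *Creb3l2*, so 3 of the 4 collagen-folding genes and the collagen hydroxylase subunit were among them. *Fkbp10* went from 75.1 through 93.7 to 165 non-Col CPM at day 10 and from 51.7 through 82.9 to 145 at day 14. The log2 ratio was 1.13 (95% CI, 0.89 to 1.37) and 1.49 (95% CI, 1.32 to 1.65). Thinned to 2000 UMIs, 3 of 28 genes were higher in these cells. *Hspa5* went from 695 to 580.2 non-Col CPM at day 10 and from 427 to 663 at day 14, so its direction differed between the libraries.

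In *Cnmd*-high cells, 3 of 35 genes were higher with Col share (4.46%) and 0 were lower (6.37%). They were *Ern1* and the ATF4 targets *Chac1* (log2 ratios, 1.92 and 1.46) and *Asns* (0.87 and 0.89). The median depth rose with the Col share in these cells, from 17276 to 20574 UMIs at day 10 and from 17520 to 23487 UMIs at day 14. With each cell thinned to 2000 UMIs, which also leaves fewer UMIs and 32 genes to compare, 0 were higher in *Cnmd*-high cells. In *Aspn*-high cells, 1 of 33 genes was higher (1.21%), *Creb3l1* (0.65 and 0.72), and 0 were lower (1.90%). After the same thinning, 0 were higher there. *Creb3l1* went from 108 through 154 to 169.8 non-Col CPM in *Aspn*-high cells at day 10, and was not called in *Col10a1*-high cells, with 139, 102, and 79.3 at day 10 and 85.9, 87.3, and 78.6 at day 14.

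*Ifitm5*-high cells allowed this comparison at day 14, with 87 cells in each outer tertile and no second library. There 6 of 34 genes were higher (9.57%) and 5 were lower (10.0%). The higher ones were *Serpinh1* (0.60), *Fkbp10* (0.77), *Mia3* (1.12), *Eif2ak3* (1.05), *Chac1* (3.65, 95% CI, 1.61 to 6.79), and *Asns* (0.71). The lower ones were *Hspa5* (−0.77), *Calr* (−0.92), *Pdia6* (−0.73), *Sdf2l1* (−0.95), and *Hyou1* (−1.59). *Serpinh1* had 2409, 3791, and 3647 non-Col CPM in the low, middle, and high tertiles, and *Hspa5* 637, 780.2, and 372. The step in *Serpinh1* lay between the low and the middle tertile and that in *Hspa5* between the middle and the high tertile. The median depth of the low, middle, and high tertiles was 15115, 18282, and 13356 UMIs, and its part was not tested.

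**Figure D4:**
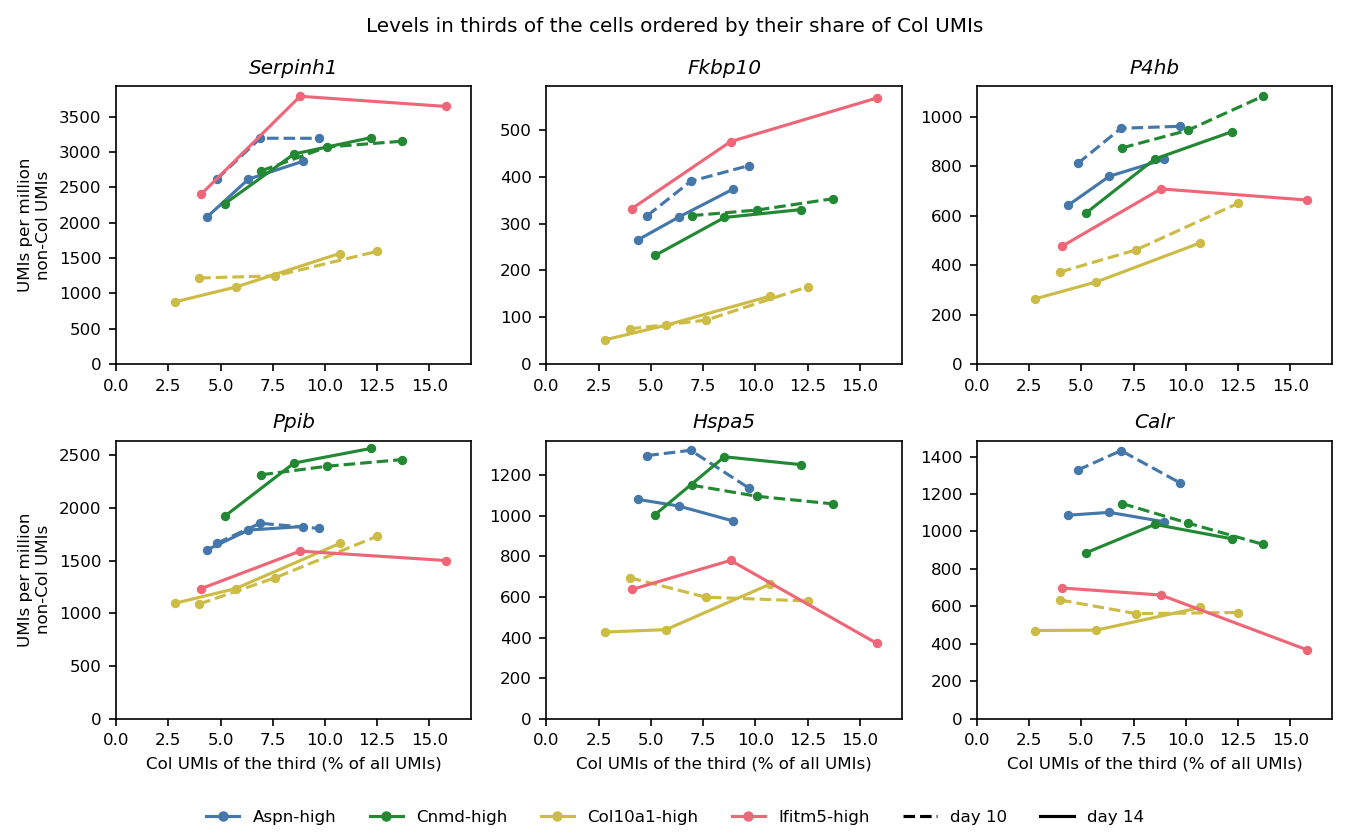
CPM of UMIs not from Col genes (y axis) for 4 genes of collagen folding or hydroxylation (*Serpinh1*, *Fkbp10*, *P4hb*, *Ppib*) and 2 general chaperones (*Hspa5*, *Calr*), against the percentage of Col UMIs (x axis), in tertiles of the cells of 4 classes at day 10 (dashed) and day 14 (solid). The lines of *Fkbp10* rise in each class and day shown, and *Hspa5* and *Calr* are lowest in the high tertile of *Ifitm5*-high cells, at 372 and 368.

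Rank correlations across single cells are given as a description of cells that share a library. The Spearman correlation of Col share with the summed collagen-folding genes was 0.22 in 1317 *Aspn*-high, 0.19 in 2298 *Cnmd*-high, and 0.34 in 525 *Col10a1*-high cells of day 10. At day 14 it was 0.28 in *Aspn*-high, 0.45 in *Cnmd*-high, 0.41 in *Col10a1*-high, 0.37 in *Ifitm5*-high, and 0.02 in *Rgs5*-high cells. For the summed chaperones it was −0.03, −0.06, and 0.08 at day 10, and 0.02, 0.16, 0.16, −0.19, and −0.01 at day 14. The correlation of Col share with the UMIs of the cell ran from −0.04 to 0.27. Weak correlations of sparse genes were not read.

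Of 57 further genes of the secretory pathway and the stress response, 55 were in the tables. In *Col10a1*-high cells, 24 of the 55 were lower than in *Cnmd*-high cells and 1 was higher, against the 13.6% and 16.8% of all genes. Among them were the disulfide isomerase *Txndc5* (log2 ratios, −1.33 and −1.37), the cargo receptor *Lman1* (−1.18 and −1.41), the retrieval receptor *Kdelr3* (−1.19 and −1.45), and the translocon subunit *Ssr1* (−1.20 and −1.29). Within *Col10a1*-high cells, 15 of 53 were higher in the high Col tertile (6.56% of all genes) and 0 were lower (2.89%), with *Kdelr3* (1.09 and 1.23), *Lman1* (1.05 and 0.92), and *Ssr1* (0.81 and 1.00) among them. In *Rgs5*-high cells, 15 of 54 were lower than in *Aspn*-high cells (9.23% of all genes) and 2 were higher (10.3%).

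In *Ifitm5*-high cells, 3 of 54 further genes were higher than in *Aspn*-high cells (4.64% of all genes) and 3 were lower (19.5%), so the first count was near the background and the second under it. *Vldlr*, a lipoprotein receptor and ATF4 target, was higher by log2 ratios of 4.75 and 4.49, and the stress factor *Atf3* by 0.60 and 2.62, whereas *Txndc5* (−0.82 and −0.97) and the degradation adaptor *Sel1l* (−0.96 and −1.13) were lower. From day 10 to day 14, 3 of 54 further genes were lower in *Aspn*-high cells (6.13% of all genes) and 3 of 55 in *Cnmd*-high cells (5.08%). In *Col10a1*-high cells 4 of 55 were lower (6.23%), and in *Ifitm5*-high cells 3 of 53 (4.57%). These counts were near the background. *Ppp1r15a* (GADD34), which reverses eIF2α phosphorylation, was among them in *Aspn*-high (−0.79), *Cnmd*-high (−0.84), *Col10a1*-high (−0.98), and *Ifitm5*-high cells (−0.65). In *Rgs5*-high cells 6 of 50 were lower (4.66%), without *Ppp1r15a*. *Vldlr* was higher in the high Col tertile of *Aspn*-high (0.60 and 0.63), *Cnmd*-high (1.40 and 1.11), and *Col10a1*-high cells (1.17 and 1.41).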

How the data were processed

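The authors deposited whole UMI counts per gene and barcode for 3 libraries, without normalization. The submitters' notes name Cell Ranger 3.0 and mm10. The methods and the labels name other versions of the software and kit, so these are not settled here. The members and lists were chosen with earlier results of these data known. UMIs of rows with the same symbol were summed. Cells within the study's limits and without a *Ptprc* UMI were put into classes by thresholds on 5 markers, and no doublet caller was run. UMIs were summed per class and library and scaled to CPM, with exact Poisson, conditional binomial, and Clopper-Pearson 95% intervals and no p-values. A count of 0 was read as allowing 3 counts. Genes were named when they are members, or, of the further genes, when among the 5 with the largest ratio of those called. Shares of cells used each cell thinned to 2000 UMIs. Tertiles needed 150 cells, and day comparisons 50 cells in both libraries. Promoters came from RefSeq (GRCm38.p6). Python 3.11.15, numpy 2.4.6, scipy 1.17.1, pandas 2.3.3, and matplotlib 3.10.9 were used, and the ratios were tested on simulated data. Thresholds, limits on cells, weights, depth, fold, count minimum, total, and centering were varied.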

Additional observations from a re-analysis of the deposited data

Results flagged for a closer look

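Cells without a *Ptprc* UMI that reached none of the 5 marker thresholds entered no comparison. They numbered 378, 2074, and 3249 at days 7, 10, and 14, of 447, 6587, and 9680 cells without a *Ptprc* UMI. In the 378 such cells of day 7, 5 of the 35 genes were above the highest level of any class at any day, with intervals that did not overlap. *Hspa5* was at 1259 CPM, against 1164 in the highest class. *Hsp90b1* was at 1704 against 1347 CPM, *Atf4* at 274 against 212 CPM, *Ddit3* at 62.2 against 37.0 CPM, and *Dnajb9* at 126 against 73.7 CPM. Of the 216 *Ddit3* UMIs, 36 lay in 1 cell, and the level without it was 52.3 CPM. The median depth of these cells was 3634 UMIs, and their kind was not determined. Their Col share had a median of 0.210% and an upper quartile of 5.79%, against 7.03% of their summed UMIs. The cells were thus uneven, and the summed levels weigh the deeper ones more.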

How the results depend on the processing

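No paired analysis was possible because each day had 1 library, and no replicate could be left out. Of 328 alternative counts of called genes, 64 moved by over 1.5 times, and the cause was not tested. Counts are given as higher and lower in the order of the main comparisons. With a fold of at least 2, *Ifitm5*-high over *Aspn*-high cells had 0 lower, *Cnmd*-high over *Aspn*-high 2 higher and 0 lower, *Col10a1*-high over *Cnmd*-high 0 higher and 6 lower, and *Rgs5*-high over *Aspn*-high 1 lower. Between days, that fold left 0 lower in *Aspn*-high, 0 higher in *Cnmd*-high, and 1 lower in *Rgs5*-high cells. For Col tertiles it left 0 higher in *Aspn*-high, 1 in *Cnmd*-high, 1 in *Col10a1*-high, and 3 higher and 1 lower in *Ifitm5*-high cells.

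With each cell thinned to 2000 UMIs, which leaves fewer UMIs, the pairs of classes had 1 higher for *Ifitm5*-high, 2 higher and 1 lower for *Cnmd*-high over *Aspn*-high, and 0 higher for *Col10a1*-high. Day 14 over day 10 had 0 lower in *Aspn*-high, 1 higher and 1 lower in *Cnmd*-high, and 1 higher in *Col10a1*-high cells. Col tertiles had 0 higher in *Aspn*-high, 0 in *Cnmd*-high, 3 in *Col10a1*-high, and 2 lower in *Ifitm5*-high cells.

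With all thresholds doubled, there were 5 higher for *Ifitm5*-high, 2 for *Cnmd*-high, and 1 for *Col10a1*-high, 5 lower for *Rgs5*-high, 0 lower by day in *Aspn*-high and 1 higher by day in *Cnmd*-high, and 3 higher by Col tertile in *Ifitm5*-high cells. With all thresholds halved, there were 1 lower for *Cnmd*-high, 2 lower by day in *Ifitm5*-high, 1 higher by day in *Rgs5*-high, and, by Col tertile, 0 higher in *Aspn*-high, 3 higher in *Col10a1*-high, and 8 lower in *Ifitm5*-high cells. Centered on the median of all genes, an alternative chosen after seeing the data, *Ifitm5*-high cells had 8 higher and 0 lower, and *Cnmd*-high cells 0 lower against *Aspn*-high cells.

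*Chac1* in *Aspn*-high cells, the 1 gene lower by day, was lost (0) when cells over several thresholds were assigned, without the upper limit of 5000 genes, without limits on cells, and with at least 100 UMIs. The same first 3 settings gave 8 higher by Col tertile in *Col10a1*-high cells, and without either limit 2 were higher in *Aspn*-high cells. A minimum of 100 UMIs left 0 lower by day and 3 lower by Col tertile in *Ifitm5*-high cells. With every cell weighted equally, 1 was higher by day in *Cnmd*-high cells, and 10 were higher and 8 lower by Col tertile in *Ifitm5*-high cells. With Col UMIs in the total, the tertiles gave 0 higher in *Aspn*-high, 3 in *Col10a1*-high, and 2 higher and 10 lower in *Ifitm5*-high cells. With the cells split at the median Col share in place of tertiles, they gave 0, 3, and 3 higher and 3 lower. The 16 genes lower in *Col10a1*-high than in *Cnmd*-high cells stayed within 1.5 times in count under every setting but the fold of at least 2.

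The share of UMIs from the 35 genes in *Col10a1*-high cells ran from 0.721% to 0.826% at day 10 and from 0.640% to 0.717% at day 14 over the alternatives that keep the total, under the 0.869% of the lowest other class. *Ifitm5*-high and *Rgs5*-high cells of day 10, with 76 and 70 cells, limit the precision of genes under about 20 CPM.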
